A study of Sorghum bicolor with 16 samples.

Results

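The regions described here are the m6A peaks that the authors' annotation placed in a 5′ UTR. They were all rows of the 4 deposited peak lists whose annotation began with 5′ UTR: 3318 of 38503 peaks. The lists came from roots of 2 sweet sorghum (Sorghum bicolor) strains at the 3-leaf phase, grown with salt or as controls. Each list compared RNA fragments bound by an m6A antibody (IP) with unenriched input RNA. The groups were Roma salt, Roma control, M-81E salt and M-81E control. The labels call Roma salt-sensitive and M-81E salt-tolerant, and they give no salt dose or duration. Each group had 2 IP and 2 input samples among the 16 samples. There was 1 peak list per group, so differences between peak lists have no replicate check. An expression table gave 2 FPKM columns per group (sequenced fragments per kilobase, scaled to the library's mapped fragments). The labels name no mutation or transgene in any group.

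N6-methyladenosine (m6A) is the most common internal modification of messenger RNA. In plants a methyltransferase complex writes it, demethylases remove it and proteins with a YTH domain read it. Most plant m6A lies near the stop codon and in the 3′ UTR. Work in mammals has linked m6A in the 5′ UTR to the start of translation, including translation under stress. An antibody peak near the start of a transcript can also hold N6,2′-O-dimethyladenosine, a modified base beside the cap that the same antibodies bind. The antibody data do not separate these 2 modifications, and they do not show whether sorghum root transcripts carry the second one.

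The 5′ UTR held a small share of the peaks, and that share was lowest in Roma control and highest in M-81E control. The Roma salt list had 1039 5′ UTR peaks among 12080 peaks (8.60%, exact 95% Clopper-Pearson interval 8.11 to 9.12). Roma control had 404 among 5949 (6.79%, 6.16 to 7.46). M-81E salt had 759 among 10255 (7.40%, 6.90 to 7.93), and M-81E control had 1116 among 10219 (10.9%, 10.3 to 11.5). The intervals cover counting error only. In Roma the share was higher with salt, and in M-81E it was lower with salt. The M-81E lists were of nearly equal length, while the Roma control list was the shortest of the 4. The 3′ UTR peaks, from 4785 in Roma control to 9310 in Roma salt, made up 77.1% of the Roma salt list, 80.4% of Roma control, 77.9% of M-81E salt and 71.1% of M-81E control. Among the 7333 genes with a mean of at least 5 FPKM in all 4 groups, the order of the lists was the same: 8.18% had a 5′ UTR peak in Roma salt, 3.57% in Roma control, 6.16% in M-81E salt and 9.79% in M-81E control. Read depth behind the lists is unknown from these files, and its part in the number of peaks was not tested.

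Fold enrichment, the authors' IP-over-input value for each peak, spread more widely in the 5′ UTR than in the 3′ UTR. The median for 5′ UTR peaks was 19.9 in Roma salt, 15.5 in Roma control, 8.84 in M-81E salt and 18.3 in M-81E control. For 3′ UTR peaks of the same lists it was 24.8, 19.9, 15.3 and 13.8. The 5′ UTR median was thus the lower one in 3 lists and the higher one in M-81E control. The mean difference over the 4 lists, 5′ UTR minus 3′ UTR, was -2.81 (two-sided exact sign-flip test, p = 0.375, the smallest possible being 0.13). Both ends of the scale were fuller in the 5′ UTR. Peaks of at least 100-fold made up 14.1% of 5′ UTR peaks in Roma salt, 14.9% in Roma control, 6.06% in M-81E salt and 15.8% in M-81E control, against 9.56%, 6.14%, 2.57% and 3.61% of 3′ UTR peaks in those lists. Peaks under 4-fold made up 10.8%, 11.9%, 20.8% and 11.4% of 5′ UTR peaks, against 4.36%, 4.89%, 7.82% and 8.94% of 3′ UTR peaks. The lists were called separately, so fold values of different lists, printed side by side below, are not on a known common scale. The ranking of loci found in all 4 lists by their median fold enrichment is a description.

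**Figure D1:**
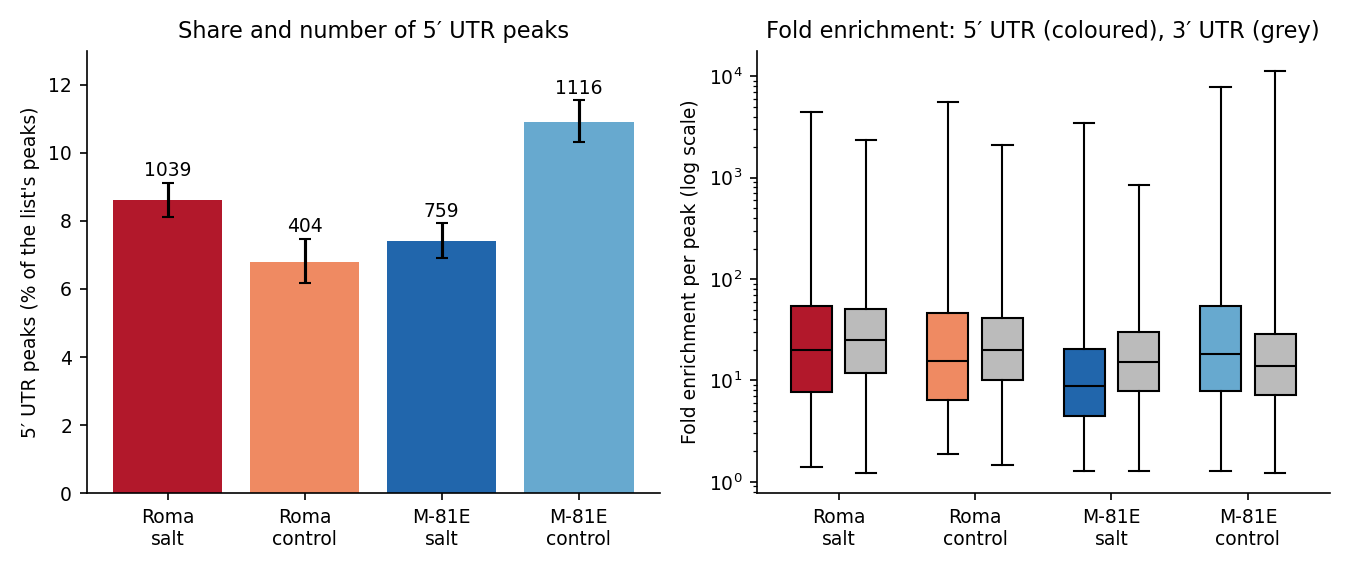
The left panel plots 5′ UTR peaks as a percentage of each list's peaks, with exact 95% intervals and the number of peaks above each bar; Roma control has the lowest bar (404 peaks) and M-81E control the highest (1116 peaks). The right panel plots fold enrichment per peak on a log scale for 5′ UTR peaks (coloured) and 3′ UTR peaks (grey), with boxes at the quartiles and whiskers at the lowest and highest peak; the 5′ UTR median lies above the 3′ UTR median in M-81E control and below it in the other lists.

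5′ UTR peaks were narrow and sat at the start of the gene. The median span was 210 bp in Roma salt, Roma control and M-81E salt and 238 bp in M-81E control, against 270, 238, 268 and 241 bp for 3′ UTR peaks. The 5′ UTR median was lower in all 4 lists, by 37.2 bp on average (exact sign-flip test, p = 0.13, the smallest that 4 lists allow). Spans over 1000 bp were 7.60% of 5′ UTR peaks in Roma salt, 9.65% in Roma control, 8.30% in M-81E salt and 8.42% in M-81E control, but 1.89% to 2.01% of 3′ UTR peaks. Between 81.2% and 85.1% of 5′ UTR peaks were a single block, against 93.3% to 93.9% of 3′ UTR peaks.

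Between 28.5% and 29.95% of the 5′ UTR peaks began exactly at the first annotated base of the host gene, and 66.5% to 72.0% began within 300 bp after it. A further 5.94% to 7.11% began upstream of the annotated start, yet every 5′ UTR peak overlapped its host. Starts far inside a gene also occurred: 7.41% of Roma salt peaks, 5.20% of Roma control, 7.51% of M-81E salt and 4.57% of M-81E control began over 3000 bp from the first base. These distances are genomic and include introns, and an annotation of several transcripts can place a 5′ UTR inside a gene. In Roma salt, peaks that began at the first base had a median fold enrichment of 25.3, against 13.6 for those that began more than 300 and up to 1000 bp inside. The same pair of medians was 19.7 and 10.3 in Roma control, 9.88 and 7.56 in M-81E salt, and 23.7 and 13.3 in M-81E control. The medians did not fall steadily with distance. Over 3000 bp inside they were 20.1 in Roma salt, 11.5 in Roma control, 11.6 in M-81E salt and 15.4 in M-81E control.

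**Figure D2:**
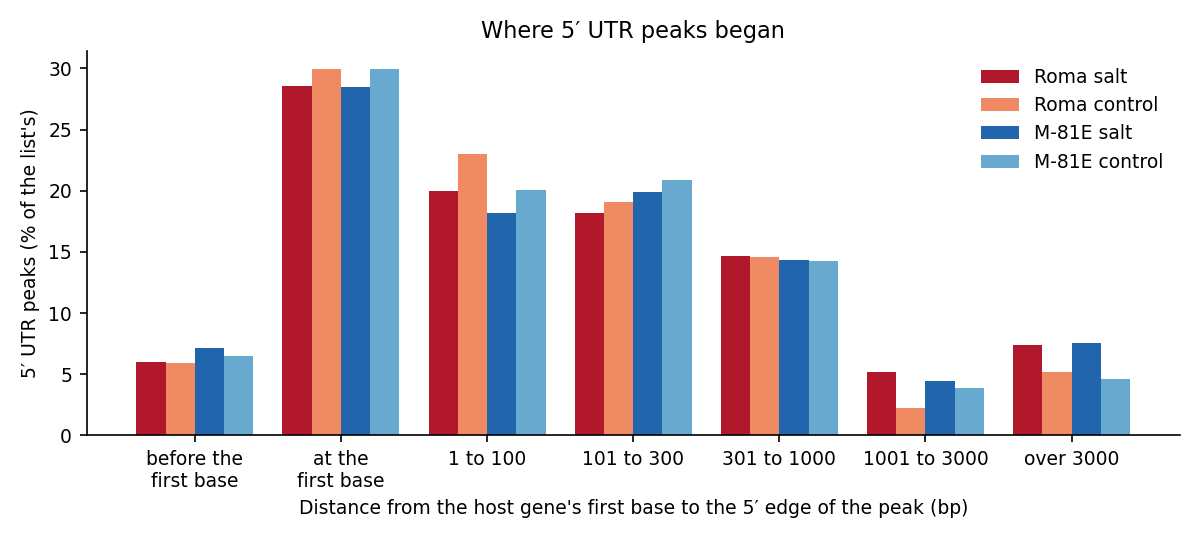
The bars plot the percentage of each list's 5′ UTR peaks by the genomic distance, in bp, of the peak's 5′ edge from the first base of its host gene. In all 4 lists the bar at the first base is the tallest, between 28.5% and 29.95%.

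The peaks fell on 1427 host genes: 962 in Roma salt, 385 in Roma control, 714 in M-81E salt and 1067 in M-81E control. Of these genes, 276 had a 5′ UTR peak in all 4 lists and 561 in 1 list. The expression table held 1405 of them, and 1229 had a Gene Ontology (GO) term. Host genes were shorter than genes with a 3′ UTR peak, the only genes they were compared with here. Their median length was 3090 bp in Roma salt, 2911 bp in Roma control, 3412 bp in M-81E salt and 3118 bp in M-81E control, against 4686, 4759, 4646 and 4736 bp for genes with a 3′ UTR peak.

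Host genes stood at higher FPKM than the hosts of 3′ UTR peaks. The table does not say whether its FPKM values come from IP or input RNA, and in whole roots fewer cells of a type and less RNA per cell cannot be told apart. In Roma salt the 5′ UTR hosts had a median of 23.1 and 22.2 FPKM in the 2 libraries, against 12.2 and 12.7 for 3′ UTR hosts. In Roma control the medians were 36.2 and 36.8 FPKM, against 21.3 and 21.1. In M-81E salt they were 19.2 and 19.1 FPKM, against 11.3 and 12.7. In M-81E control they were 25.2 and 16.1 FPKM, against 12.7 and 14.5. The 5′ UTR hosts were thus higher in all 8 libraries, by 9.90 FPKM on average (exact sign-flip test, p = 0.0078, the smallest possible; libraries of a group share a peak list). The difference was smallest, 1.58 FPKM, in M-81E control replicate 2. It turned round among genes with only 1 kind of UTR peak: genes with a 5′ UTR peak alone were lower than genes with a 3′ UTR peak alone, by 3.15 FPKM on average (exact p = 0.047). Libraries of a group share host sets here too, so the 8 libraries are not independent units for either p-value.

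The share of genes with a 5′ UTR peak was higher at each step of FPKM. In Roma salt it was 0.632% of genes under 1 FPKM, 2.13% at 1 to 5, 3.53% at 5 to 20, 10.2% at 20 to 100 and 23.6% at 100 FPKM or more. In M-81E control the same steps held 0.387%, 2.38%, 5.10%, 12.2% and 28.6%. For 3′ UTR peaks the last 2 steps, 20 to 100 FPKM and 100 or more, held 76.9% and 76.7% in Roma salt, 72.6% and 76.2% in M-81E salt, and 71.9% and 72.5% in M-81E control. In Roma control the 3′ UTR share was still higher at the last step, at 56.6% and 72.1%. The fold enrichment of the 5′ UTR peaks themselves was not higher in abundant transcripts. Its median at 100 FPKM or more was 13.4 in Roma salt, against 23.5 at 1 to 5 FPKM, and 14.2 in M-81E control, against 20.4 at 1 to 5 FPKM. Across the peaks of a list, the rank correlation of fold enrichment with host FPKM ran from -0.15 (742 peaks, M-81E salt) to -0.08 (394 peaks, Roma control). Peaks of a list share their libraries, so this is a description.

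**Figure D3:**
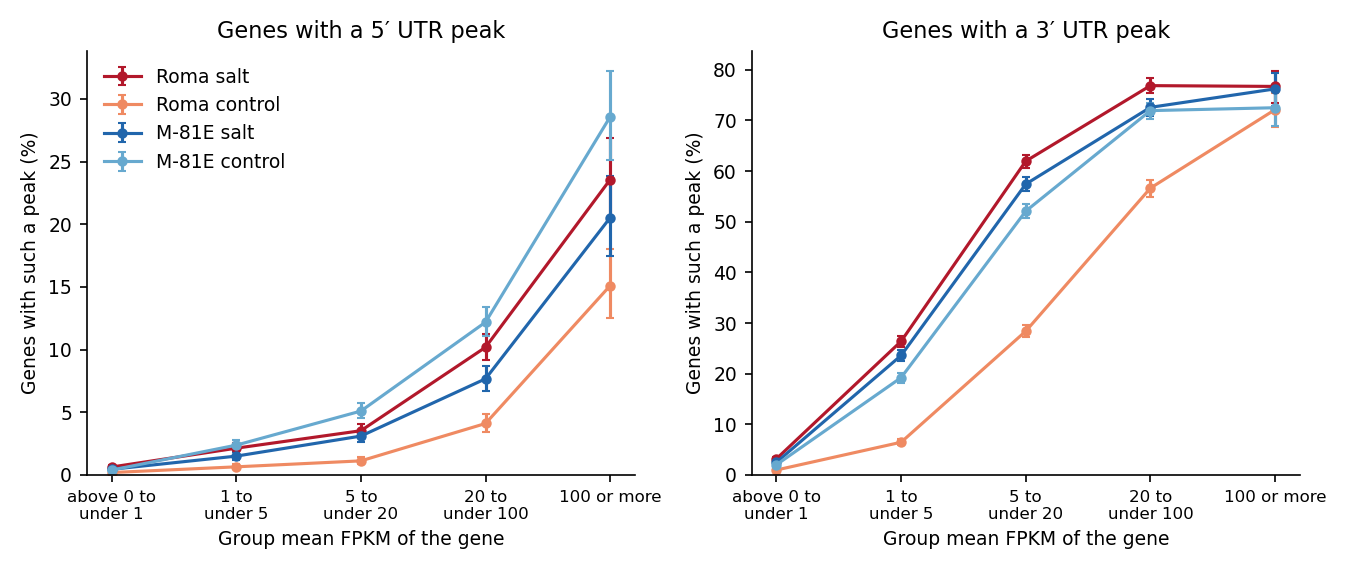
The points plot the percentage of genes with a 5′ UTR peak (left) or a 3′ UTR peak (right) by the gene's mean FPKM in the list's own group, with exact 95% intervals. The 5′ UTR lines are highest in the last bin, where they reach 23.6% in Roma salt, 15.1% in Roma control, 20.5% in M-81E salt and 28.6% in M-81E control, while the 3′ UTR lines of Roma salt, M-81E salt and M-81E control are nearly level over the last 2 bins.

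Between 41.0% and 54.6% of the host genes also carried a 3′ UTR peak in the same list. They were 516 of 962 in Roma salt (53.6%, exact 95% interval 50.4 to 56.8), 158 of 385 in Roma control (41.0%, 36.1 to 46.1), 390 of 714 in M-81E salt (54.6%, 50.9 to 58.3) and 532 of 1067 in M-81E control (49.9%, 46.8 to 52.9). Seen from the other side, these genes were 5.89%, 3.45%, 5.18% and 7.76% of the genes with a 3′ UTR peak. Among hosts of at least 1 FPKM, 59.5% in Roma salt had a 3′ UTR peak, against 51.7% of all genes of at least 1 FPKM. The pair was 43.8% against 27.7% in Roma control, 60.9% against 46.9% in M-81E salt and 53.8% against 43.6% in M-81E control. The 2 sets share this floor but were not matched for FPKM. In Roma salt replicate 1, 5′ UTR hosts had a median of 23.1 FPKM and genes of at least 1 FPKM 7.25. The 3′ UTR share in Roma salt was 26.4% of genes at 1 to 5 FPKM and 76.9% at 20 to 100. Whether hosts differ from genes of equal FPKM was not tested. Hosts with both peaks were longer and stood at higher FPKM than hosts with a 5′ UTR peak and neither a 3′ UTR nor another peak. In Roma salt their median length was 3922 bp, against 2001 bp, and their median level 36.0 FPKM, against 8.25. In M-81E control the medians were 3960 bp, against 2148 bp, and 39.1 FPKM, against 9.54. Within genes with both, the 5′ UTR peak had the larger fold enrichment in 52.1% of genes in Roma salt, 53.2% in Roma control, 46.7% in M-81E salt and 64.3% in M-81E control.

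Most 5′ UTR peaks recurred in another list, counted where their genomic spans met by 1 bp or more with matching chromosome and gene strand, whatever the other peak's annotation. The share found in any other list was 79.9% in Roma salt (exact 95% interval 77.3 to 82.3), 93.8% in Roma control (91.0 to 96.0), 90.3% in M-81E salt (87.9 to 92.3) and 76.3% in M-81E control (73.6 to 78.7). For 3′ UTR peaks it was 84.4%, 98.5%, 94.5% and 96.6%. Between the treatments of a strain, 39.5% of Roma salt peaks were found in Roma control and 89.9% of Roma control peaks in Roma salt. In M-81E, 83.0% of salt peaks were found in control and 58.4% of control peaks in salt. For 3′ UTR peaks the same shares, in that order, were 50.5% and 97.5% in Roma and 81.8% and 89.6% in M-81E. Peaks that recurred had the higher median fold enrichment in each list. In M-81E control it was 24.0 for peaks found in another list and 8.21 for the others. The gap was smaller in Roma salt (21.5 and 13.7), Roma control (15.7 and 13.1) and M-81E salt (9.18 and 6.74).

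Merged across lists, the peaks formed 1492 loci. A peak stood at 356 loci (23.9%) in all 4 lists, and at 277 of these it was annotated 5′ UTR each time. A single list held 558 loci (37.4%): 203 in Roma salt, 23 in Roma control, 71 in M-81E salt and 261 in M-81E control. A further 230 loci lacked a peak in Roma control alone, and 144 were shared by Roma salt and M-81E control alone. Patterns that followed treatment were rare: 44 loci had a peak in both salt lists only and 7 in both control lists only. Patterns that followed strain were rare too, with 21 loci in both Roma lists only and 74 in both M-81E lists only. At 135 loci, the counterpart in some list was annotated otherwise only. Of the 261 loci seen in M-81E control alone, 166 (63.6%) had host genes of at least 5 FPKM in all 4 groups. Of the 203 seen in Roma salt alone, 87 (42.9%) did. Among the 356 loci found in all 4 lists, 244 (68.5%) did.

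**Figure D4:**
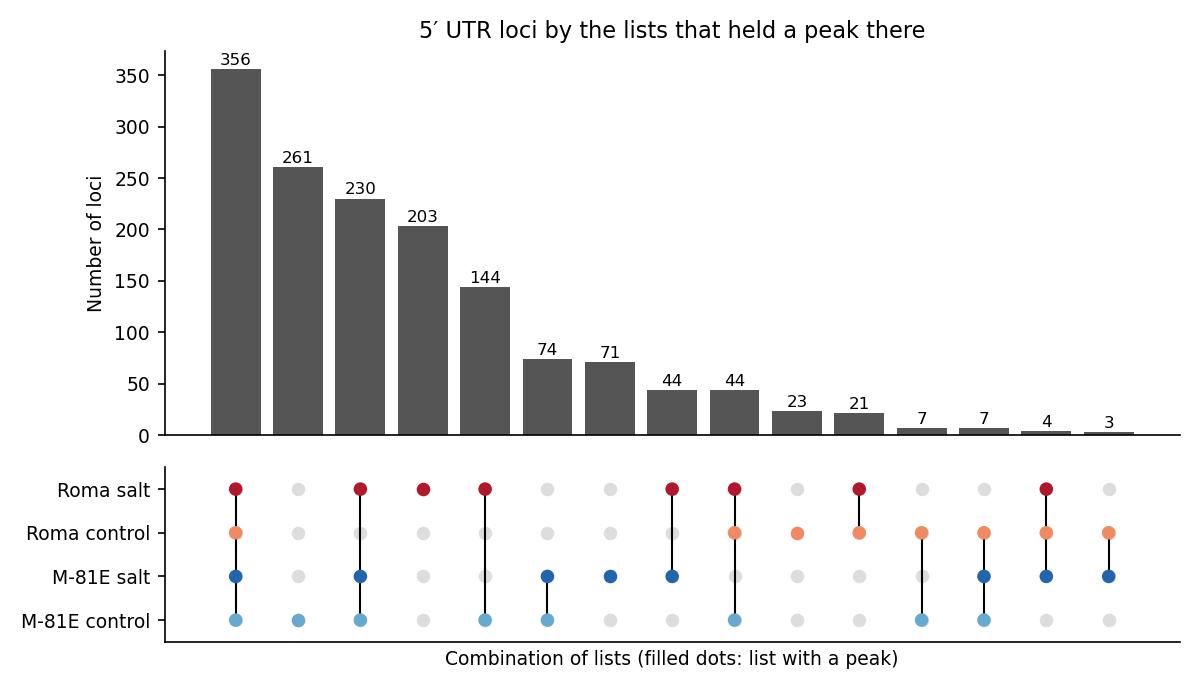
The bars give the number of 5′ UTR loci for each combination of lists marked by the filled dots beneath. The 2 tallest bars are the 356 loci with a peak in all 4 lists and the 261 with a peak in M-81E control only.

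The strongest loci found in all 4 lists lay in genes of many kinds. The largest median belonged to SORBI_3002G335300, annotated to the plasma membrane, on chromosome 2, minus strand. Its peak spanned positions 70331797 to 70332154 in Roma salt and in M-81E control. The fold enrichment was 4170 in Roma salt, 4130 in Roma control, 1120 in M-81E salt and 7890 in M-81E control. Its 3′ UTR peak was far smaller, at 11.8 in Roma salt, 9.61 in M-81E salt and 5.80 in M-81E control, with none in Roma control. The host was not unusually abundant, at 28.0 and 45.3 FPKM in Roma salt and 45.6 and 72.5 FPKM in M-81E control. The coordinates are those of the deposited lists, and the sources used here do not name their genome build.

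SORBI_3003G113800, a serine/threonine kinase annotated to positive regulation of the response to salt stress, carried peaks at the start of a gene on chromosome 3, plus strand (10257896 to 10262483). Its strongest 5′ UTR peak reached 4480 in Roma salt, 3820 in Roma control, 2320 in M-81E salt and 2910 in M-81E control. Its level was 92.2 and 92.3 FPKM in Roma salt, 97.6 and 79.9 in Roma control, 62.9 and 66.8 in M-81E salt, and 69.0 and 104 in M-81E control. These ranges overlap between salt and control within Roma, and in M-81E both salt libraries lie below both control libraries. A cellulose synthase gene also annotated to the salinity response, SORBI_3009G063400, had a 5′ UTR peak of 3170 in Roma salt, 582 in Roma control, 163 in M-81E salt and 5750 in M-81E control. Its 3′ UTR peak was present in all 4 lists, between 27.5 and 69.3. SORBI_3009G046600, a gene of lipid particle organization, had values of 4030, 5570, 180 and 2350 in the same order of lists.

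Other hosts of the strongest recurrent peaks included 2 further kinases. SORBI_3003G037000, of intracellular signal transduction, reached 3580 in Roma salt and 4070 in M-81E control. SORBI_3001G019400, a plasma membrane kinase annotated to the response to stress, reached 1740 in Roma salt and 2010 in M-81E control at 10.04 to 15.2 FPKM. SORBI_3001G421500, a telomere-binding protein gene, had no 3′ UTR peak in any list and a 5′ UTR peak of 942 in Roma salt, 2620 in Roma control, 3450 in M-81E salt and 1150 in M-81E control. SORBI_3009G130900, annotated to the response to karrikin (a smoke-derived growth cue), had peaks of 2350, 1860, 526 and 1290 in the same order. SORBI_3003G241800, which has no GO term, had 1350, 976, 390 and 1900. One strong recurrent locus, ENSRNA049471702, was assigned to an RNA gene of 97 bp on chromosome 1 (80476326 to 80476422) that the expression table did not hold. Its peaks began at -734 bp relative to that gene's first base and spanned 1928 to 2192 bp, so the assigned host covers a small part of each peak. The fold values were 3440 in Roma salt, 3500 in Roma control, 1240 in M-81E salt and 6640 in M-81E control.

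A strong 5′ UTR peak could stand beside a weak 3′ UTR peak on the same transcript. SORBI_3004G349700, an rRNA methyltransferase of box C/D small nucleolar ribonucleoproteins, had 5′ UTR fold values of 2390 in Roma salt, 517 in Roma control, 154 in M-81E salt and 1430 in M-81E control, and 3′ UTR values of 4.31, 2.2, 2.41 and 1.80. SORBI_3001G482600, a transcription corepressor that regulates jasmonate signalling, had 5′ UTR values of 1350, 899, 179 and 957, and 3′ UTR values of 3.04, 4.17, 5.42 and 2.26. SORBI_3004G104900, a receptor-type kinase by its GO terms (plasma membrane, brassinosteroid detection), showed strong peaks at both ends, with 5′ UTR values of 580, 839, 56.2 and 951 and 3′ UTR values of 34.4, 64.9, 29.8 and 16.8.

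Among loci that followed treatment, the strongest in both salt lists only lay in SORBI_3006G088200, an RNA-binding protein gene of nonsense-mediated decay, with 314 in Roma salt and 59.3 in M-81E salt. Its 3′ UTR peak stood in all 4 lists. SORBI_3010G015900, annotated to regulation of transcription and to negative regulation of the response to salt stress, followed with 88.3 and 50.5. SORBI_3007G202600, an mRNA-binding regulator of translation annotated to the response to salt stress, followed with 106 and 3.75. In both control lists only, the strongest were SORBI_3009G016500, with 51.4 in Roma control and 139 in M-81E control, and the vesicle transport gene SORBI_3003G445400, with 77.0 and 29.6. The third, SORBI_3001G400800, is described as pathogenesis-related protein 10c and annotated to abscisic acid binding, with 18.8 and 8.91. Its FPKM was 37.8 and 98.9 in Roma salt, 115 and 114 in Roma control, 263 and 180 in M-81E salt, and 279 and 25.5 in M-81E control. The M-81E control libraries lie on either side of the M-81E salt libraries.

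Among loci that followed strain, both M-81E lists alone held a peak in SORBI_3009G026500, a SUMO ligase gene, with 111 in M-81E salt and 133 in M-81E control. Its FPKM was 44.2 and 51.2 in Roma salt, 46.2 and 46.9 in Roma control, 49.0 and 66.3 in M-81E salt, and 57.7 and 90.9 in M-81E control. Both M-81E control libraries lay above all 4 Roma libraries, while M-81E salt overlapped Roma salt, and the gene did not pass the strain test. Both Roma lists alone held a peak in SORBI_3007G153900, a nitrate reductase gene, with 77.0 in Roma salt and 44.7 in Roma control. Its FPKM was 130 and 88.9 in Roma salt, 19.6 and 112 in Roma control, 24.3 and 19.1 in M-81E salt, and 10.98 and 0.577 in M-81E control. The Roma control libraries differed widely, and the M-81E libraries were low.

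By gene group, the host share was above that of all genes for the stress, transcription factor, hormone, sugar and chromatin lists, with intervals that lay above it. For the plastid list the interval lay below it. The 18 lists share genes, the intervals are not adjusted for their number, and the lists were not matched for FPKM. Lists were formed by words in the table's own GO terms and descriptions and counted among genes with a mean of at least 1 FPKM, of which 1306 of 16280 (8.02%) were hosts. Of the salt and water stress list 64 of 405 genes were hosts (15.8%, exact 95% interval 12.4 to 19.7). Of the transcription factors 109 of 753 were hosts (14.5%, 12.04 to 17.2), of the hormone list 125 of 932 (13.4%, 11.3 to 15.8) and of the sugar and starch list 25 of 192 (13.02%, 8.61 to 18.6). The median level of these lists was 14.4, 5.86, 11.4 and 17.8 FPKM, against 7.11 FPKM for all genes tested. These medians cover whole lists, hosts and other genes together, and host shares at equal FPKM were not tested. The transcription factors' share with a 3′ UTR peak in some list was 49.3%, against 57.0% of all genes tested. Of the water channels, which carry water through membranes, 5 of 24 were 5′ UTR hosts (20.8%, 7.13 to 42.2) and 6 had a 3′ UTR peak.

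In the other lists of more than 100 genes the host share lay between 6.46% and 11.2%. Protein kinases and phosphatases had 88 hosts of 1027 (8.57%), ribosome and translation 58 of 628 (9.24%), cell wall 53 of 640 (8.28%), vesicle traffic 85 of 1099 (7.73%), and ubiquitin and proteasome 54 of 744 (7.26%). The plastid list had 113 of 1750 (6.46%, exact 95% interval 5.35 to 7.71, below the share of all genes), and the mitochondrion list 92 of 1225 (7.51%). Chromatin and nucleosome had 42 of 374 (11.2%, exact 95% interval 8.21 to 14.9, above the share of all genes), and protein folding and heat response 32 of 291 (10.997%). Redox and peroxidases had 30 of 313 (9.58%), splicing and RNA binding 53 of 720 (7.36%), and sodium, potassium and proton transport 11 of 124 (8.87%). Neither of the 2 genes annotated to mRNA methylation was a host.

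Among single GO terms with at least 15 hosts, the host share ran from 5.36% (integral component of membrane, 104 of 1942 genes) to 22.9%. ATP binding had 60 of 995 (6.03%). The minimum of 15 hosts admits a small term only if its share is high, so the high shares of small terms are partly set by it. The response to water deprivation had 28 hosts of 143 genes (19.6%) and the response to salt stress 32 of 247 (12.96%). The response to salicylic acid, a defence hormone, had 19 of 83 (22.9%), and ethylene-activated signalling 21 of 104 (20.2%). The cytosolic large ribosomal subunit had 27 of 137 (19.7%), while translation had 21 of 229 (9.17%). Glycolysis had 15 of 66 (22.7%), the smallest number of hosts that the minimum admits. Abscisic acid is the hormone of drought and salt responses. Its activated signalling pathway had 23 hosts of 122 genes, of which 8 had the peak in Roma salt, 5 in Roma control, 9 in M-81E salt and 21 in M-81E control. The term response to abscisic acid had 26 hosts of 200 genes, with the peak in 17, 6, 17 and 23 of them in the same order of lists. Of all 1306 hosts tested, 873 had it in Roma salt, 355 in Roma control, 650 in M-81E salt and 1004 in M-81E control.

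The 2 named water channel genes with a 5′ UTR peak in all 4 lists differed in its strength. SORBI_3004G288700 had fold values of 22.4 in Roma salt, 3.31 in Roma control, 52.3 in M-81E salt and 149 in M-81E control and no 3′ UTR peak. Its level was 315 and 295 FPKM in Roma salt, 171 and 201 in Roma control, 254 and 258 in M-81E salt, and 153 and 52.9 in M-81E control. Both salt libraries lay above both control libraries in each strain, and the gene did not pass the expression test in either. SORBI_3001G505100 had fold values of 2.52, 3.14, 1.87 and 2.07 in that order of lists, all near the low end.

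Few host genes passed the test of expression for salt against control. The test was limma on log2(FPKM + 1) across the 16280 genes with a mean of at least 1 FPKM, with Benjamini-Hochberg adjusted p under 0.05, and 1306 hosts entered it; 99 were below the filter and 22 were not in the table. In M-81E, 11 hosts passed for salt against control, 5 higher and 6 lower, against 0.491% of all genes tested (0.209% higher and 0.283% lower). In Roma, 7 passed, 5 higher and 2 lower, against 0.473% (0.332% higher and 0.141% lower). The hosts' median log2 fold change was 0.08 in M-81E and 0.03 in Roma, against -0.05 and -0.03 for all genes tested. Hosts with a locus listed in M-81E control and not in M-81E salt numbered 454. A host with several loci can fall in several such sets. Of the 438 tested, 2 passed for salt against control in M-81E and their median log2 fold change was 0.07. Hosts with a locus listed in Roma salt and not in Roma control had 4 of 532 past the threshold in Roma and a median of 0.12, with 61.1% of values above 0. The opposite set, with a locus listed in Roma control and not in Roma salt, had 31 hosts tested, of which 0 passed in limma (5 at an unadjusted p under 0.05). Its median log2 fold change in Roma was -0.32, with 12.9% of values above 0, against 47.4% of all genes tested. These sets were chosen by peaks in the same groups, and 5′ UTR peaks were more frequent at higher FPKM. The direction of change is therefore not independent of the choice, and genes of a set are not replicates. The part of transcript level in these sets was not tested.

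The hosts that rose with salt in M-81E included SORBI_3001G406300, a serine/threonine phosphatase gene annotated to abscisic acid signalling. It had 196 and 206 FPKM in M-81E salt, against 54.7 and 47.2 FPKM in M-81E control, with no overlap. The log2 fold change was 1.96 ± 0.18 (SE, adjusted p = 0.017, limma). Its peak began at the first base of the gene in all 4 lists, with fold values of 257 in Roma salt, 156 in Roma control, 24.1 in M-81E salt and 262 in M-81E control. SORBI_3008G113000, an acid phosphatase of the cell wall, had 77.0 and 69.4 FPKM in M-81E salt, against 13.9 and 6.65 in M-81E control (log2 fold change 2.80 ± 0.33, adjusted p = 0.036). Its only 5′ UTR peak was in M-81E control (8.01). SORBI_3002G418900, with no GO term, had 105 and 73.8 FPKM in M-81E salt, against 13.1 and 6.22 in M-81E control (3.14 ± 0.36, adjusted p = 0.035). SORBI_3002G282300 had 140 and 59.1 FPKM in M-81E salt, against 0 and 1.30 in M-81E control (adjusted p = 0.015), beside a peak of 2.05 to 7.54 in every list.

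SORBI_3004G011566, described as a catalase, the enzyme that breaks down hydrogen peroxide, rose with salt in both strains. It had 48.1 and 44.4 FPKM in Roma salt, against 11.4 and 9.98 in Roma control (log2 fold change 2.02 ± 0.22, adjusted p = 0.027). In M-81E it had 15.8 and 13.7 FPKM in salt, against 3.84 and 2.59 in control (1.92 ± 0.22, adjusted p = 0.035). Its 5′ UTR peak (9.38) was in the Roma salt list only. SORBI_3009G215700, described as late embryogenesis abundant protein 3, a protein class that protects cells during water loss, had 91.0 and 69.4 FPKM in Roma salt, against 0.982 and 2.23 in Roma control (4.99 ± 0.54, adjusted p = 0.026). Its 5′ UTR peak (11.8) was also in the Roma salt list only. SORBI_3010G233200, annotated to heat acclimation, rose in Roma with 15.1 and 13.2 FPKM in salt, against 1.57 and 2.38 in control (2.36 ± 0.25, adjusted p = 0.026). It had a peak in every list but Roma control.

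SORBI_3007G023700, an isomerase gene by its GO term, fell with salt in both strains while its 5′ UTR peak stood in all 4 lists. It had 18.2 and 16.8 FPKM in Roma salt, against 83.6 and 116 in Roma control (log2 fold change -2.43 ± 0.22, adjusted p = 0.014). In M-81E it had 34.2 and 30.4 FPKM in salt, against 107 and 120 in control (-1.78 ± 0.22, adjusted p = 0.042). Its fold values were 146 in Roma salt, 337 in Roma control, 74.5 in M-81E salt and 546 in M-81E control. A membrane transporter gene, SORBI_3001G031700, fell in M-81E with 69.3 and 78.6 FPKM in salt, against 188 and 184 in control (-1.32 ± 0.17, adjusted p = 0.048). SORBI_3001G208300 fell there with 33.9 and 31.6 FPKM, against 85.4 and 99.2 (-1.46 ± 0.18, adjusted p = 0.039). Of the 14 hosts past the threshold in either strain, 12 lost the call under at least 1 alternative setting or left-out library. The counts rested on single libraries. For M-81E, omitting its control replicate 1 gave 313 hosts and omitting control replicate 2 gave 17. Omitting its salt replicate 2 gave 27, omitting salt replicate 1 gave 7, and omitting any 1 of the 4 Roma libraries gave 2. For Roma, the omission of M-81E control replicate 1 or 2 gave 38 or 39.

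**Figure D5:**
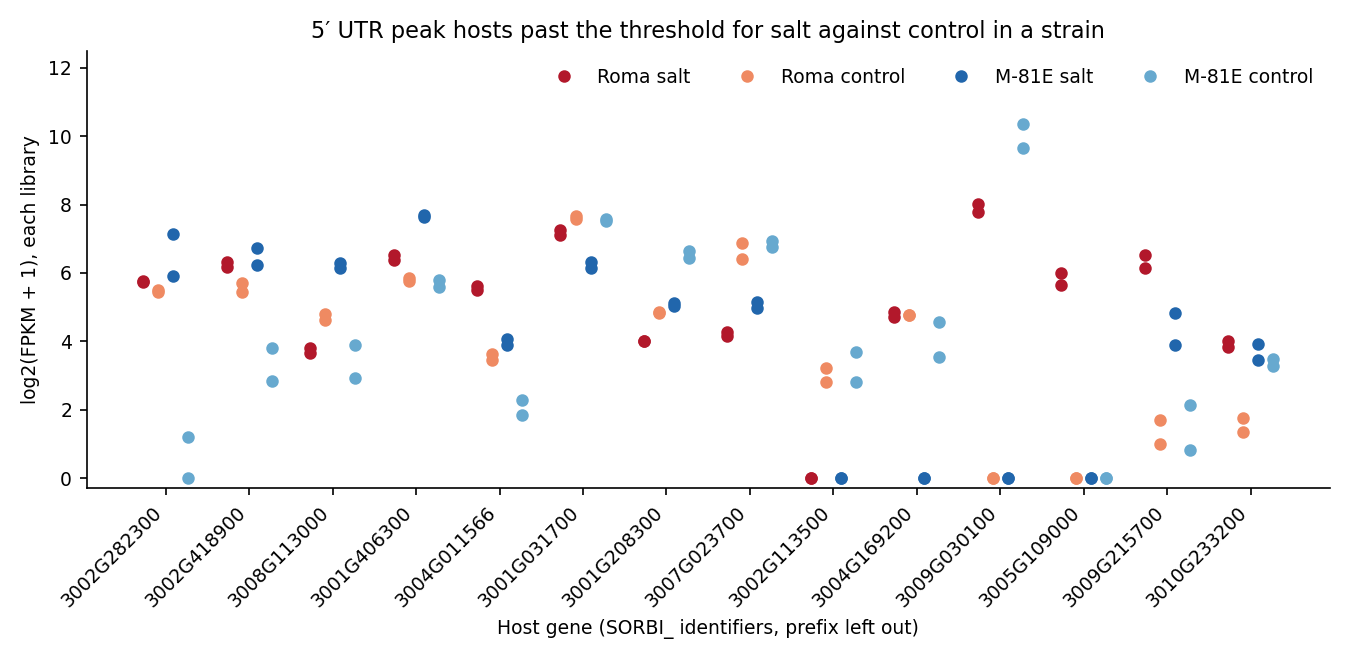
Each point is log2(FPKM + 1) of 1 library for the 14 host genes past the threshold for salt against control in a strain, with 2 libraries per group. SORBI_3001G406300 is highest in both M-81E salt libraries, SORBI_3007G023700 is lower in salt than in control in both strains, and points at 0 are libraries in which the gene is listed at 0.

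Of the hosts, 2 passed the test of the difference between the strains' salt responses, 2 higher and 0 lower, against 0.178% of all genes tested (0.129% higher and 0.0491% lower), and both were listed at 0 in several libraries. SORBI_3009G030100, with no GO term, had 260 and 218 FPKM in Roma salt and was listed at 0 in both Roma control libraries. In M-81E it was listed at 0 in each salt library and had 1301 and 804 FPKM in control (adjusted p = 7.0e-05). All 4 lists nevertheless held its 5′ UTR peak, with fold values of 4.90 in Roma salt, 4.76 in Roma control, 1.39 in M-81E salt and 9.93 in M-81E control. SORBI_3005G109000, a monooxygenase gene annotated to the response to wounding, had 62.6 and 48.8 FPKM in Roma salt and was listed at 0 in the other 6 libraries (adjusted p = 0.0031). Its single 5′ UTR peak (1.85) was in M-81E control, a group in which it was listed at 0. Omitting M-81E control replicate 1 changed the count of 2 to 143, and omitting replicate 2 of that group changed it to 11. Omitting M-81E salt replicate 2 gave 23 and its replicate 1 gave 7. Omitting Roma control replicate 2 gave 6, and omitting any 1 of the other 3 Roma libraries gave 4.

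A peak on a gene listed at 0 recurred beyond these genes. Of hosts in the expression table, 38 of 942 in Roma salt were listed at 0 in both libraries of that group, 11 of 376 in Roma control, 32 of 698 in M-81E salt and 41 of 1051 in M-81E control. Of them, 28, 7, 20 and 28 reached at least 5 FPKM in a library of another group. An exact 0 in this table is therefore not read here as absence of the transcript. The same count was not made for hosts of 3′ UTR peaks or for all genes.

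Between strains, hosts passed about as often as all genes in total, but a larger part of those that passed were lower in Roma. For Roma against M-81E in control 165 of 1306 hosts passed, 96 higher and 69 lower, against 12.1% of all genes tested. In salt 108 passed, 54 higher and 54 lower, against 8.42%. All 16280 genes tested had 1359 higher and 612 lower in control, and 977 higher and 393 lower in salt. This difference in direction was not tested. Hosts whose locus was listed in both M-81E lists only were mostly lower in Roma where they passed: 17 of 71 passed in control, 1 higher and 16 lower, and 15 of 71 in salt, 0 higher and 15 lower. Of all genes tested, 3.76% passed as lower in control and 2.41% in salt. Hosts whose locus was listed in Roma salt only went the other way, with 27 higher and 3 lower of 158 in control and 19 higher and 2 lower in salt, against 8.35% and 6.0% of all genes tested as higher. Peaks and FPKM come from the same plants, and the part of transcript level in these peak patterns was not tested. The total in control was 24 or 25 when either Roma control library was omitted, 66 or 67 for either Roma salt library, and 390 (replicate 1) or 290 (replicate 2) for an M-81E control library. In salt it was 20 or 22 when either Roma salt library was omitted, 43 or 42 for a Roma control library, 41 for M-81E salt replicate 1, and 294 or 292 for an M-81E control library.

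SORBI_3001G352400, annotated to rhythmic processes and regulation of transcription, was lower in Roma in both conditions. It had 20.2 and 22.8 FPKM in Roma salt, against 161 and 179 in M-81E salt (log2 fold change -2.93 ± 0.21, adjusted p = 0.0020). In controls it had 21.8 and 23.2 FPKM in Roma, against 161 and 215 in M-81E (-2.99 ± 0.21, adjusted p = 0.0018). Its 5′ UTR peak was in the M-81E lists only, with fold values of 17.3 in salt and 50.9 in control, while its 3′ UTR peak stood in all 4 lists. A dioxygenase gene, SORBI_3008G109400, likewise had its 5′ UTR peak in the M-81E lists only. It had 32.5 and 77.4 FPKM in Roma salt, against 276 and 262 in M-81E salt (-2.39 ± 0.44, adjusted p = 0.029). SORBI_3004G349700, the rRNA methyltransferase above, was higher in Roma salt, with 143 and 132 FPKM, against 41.6 and 47.5 in M-81E salt (1.61 ± 0.24, adjusted p = 0.016).

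The nucleosome genes SORBI_3003G200501 and SORBI_3003G067300 were listed at 0 in every M-81E library. SORBI_3003G200501 had 55.8 and 43.4 FPKM in Roma salt and 52.7 and 49.3 in Roma control, and was listed at 0 in all 4 M-81E libraries (adjusted p = 0.00036 in control). Its 5′ UTR peak was nevertheless strong in M-81E control (1800) and present in M-81E salt (14.9), beside 846 in Roma salt and 580 in Roma control. SORBI_3003G067300 had 86.4 and 59.2 FPKM in Roma salt and 78.7 and 78.9 in Roma control, and was also listed at 0 in all M-81E libraries, with peaks in all 4 lists. Nucleosome genes belong to families of near-identical copies, so their FPKM is uncertain where the counting could divide reads between copies. SORBI_3006G273800, of the CCR4-NOT complex that shortens mRNA tails, had 92.1 and 65.8 FPKM in Roma salt and 78.5 and 74.6 in Roma control. In M-81E it was listed at 0 in each salt library and in control replicate 1, with 11.3 FPKM in control replicate 2. It too had a 5′ UTR peak in every list, from 5.49 in M-81E salt to 36.7 in Roma control.

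Some hosts carried several separate 5′ UTR peaks. SORBI_3006G057100, annotated to the assembly of the large ribosomal subunit, had 4 in every list. Its level was 0.241 and 0.234 FPKM in Roma salt, 0.286 and 0.335 in Roma control, 1.06 and 0.732 in M-81E salt, and 0.162 and 0.047 in M-81E control. That gene is 20505 bp long and its strongest peaks began 3901 to 5006 bp from the first base. SORBI_3009G078200, annotated to the mitochondrion, had 3 in Roma salt, none in Roma control, 4 in M-81E salt and 4 in M-81E control, with 4.41 to 4.76 FPKM in Roma and 0.325 to 0.537 in M-81E. SORBI_3010G188300, a fructose-bisphosphate aldolase gene, had a peak of 40.2 to 82.6 in every list at under 0.1 FPKM in all libraries. The libraries were strand-specific by the labels, but whether counting and peak calling used the strand is not stated, so reads of overlapping or antisense genes may be mixed at such loci.

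By chromosome, the 5′ UTR share of peaks was lowest on chromosome 8 in all 4 lists. It was 25 of 545 peaks in Roma salt (4.59%, exact 95% interval 2.99 to 6.70), 7 of 248 in Roma control (2.82%, 1.14 to 5.73), 22 of 472 in M-81E salt (4.66%, 2.94 to 6.97) and 36 of 446 in M-81E control (8.07%, 5.72 to 11). The lists share many loci, so they are not independent, and the chromosome was singled out after its values were seen.

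The libraries behind the FPKM values were of similar total, with summed FPKM between 325987 (M-81E control replicate 2) and 377097 (Roma control replicate 1). Across genes the replicates correlated at a Spearman rho of 0.90 in Roma salt, 0.91 in Roma control, 0.86 in M-81E salt and 0.81 in M-81E control. M-81E control replicate 2 lay apart on the second principal component. Genes annotated to photosystems and light harvesting, markers of leaf, made up 0.219% to 0.302% of the summed FPKM, with 19 to 44 of the 156 genes at 0. Genes annotated to root structures made up 1.51% to 1.74%.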

How the data were processed

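Poly(A) RNA from roots was fragmented and enriched with an m6A antibody, per the labels' protocols, and strand-specific (dUTP) IP and input libraries were sequenced as read pairs. Tools named by the submitters' processing notes are edgeR, StringTie, ChIPseeker, HISAT2, FastQC and cutadapt, without roles or versions. The peak caller, the genome build and any pooling of replicates before calling were not stated there or in the labels. In each peak list the authors gave a fold enrichment (a ratio of IP to input), a p-value, a log10 score of the p-value and of the false discovery rate, and the annotation with its host gene. The expression table was deposited as FPKM with GO terms. The labels attach its column names to IP samples, and whether its values describe IP or input RNA is not stated. Counts were not used here, so depth is unknown and FPKM values have no counting interval.

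From the files, peaks annotated 5′ UTR were taken as listed (the Roma salt and M-81E salt lists each repeat 1 such row). Overlap meant at least 1 bp of the genomic span on the same chromosome and gene strand. Expression was tested with limma 3.58.1 (R 4.3.3, trended eBayes) on log2(FPKM + 1) of the 16280 genes with a mean of at least 1 FPKM, with 4 group means and 5 contrasts. Fold changes on that scale understate changes of low genes. Python 3.11.15, pandas 2.3.3, numpy 2.4.6 and scipy 1.17.1 were used for the rest. The fit was tested on simulated data. Replicates are labelled biological, and nothing shows that equal numbers pair samples across groups. Named genes were the 10 strongest in all lists, the 3 strongest per list and per pattern (host of at least 5 FPKM), up to 5 each way per contrast, those with most peaks, and 2 per gene list. Chromosome 8 and the count of hosts listed at 0 were chosen after their values were seen. The members and lists were chosen with earlier results of these data known. The reference table used RefSeq identifiers that matched none of the files' gene identifiers, so gene roles come from the deposited GO terms and descriptions.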

Additional observations from a re-analysis of the deposited data

Results flagged for a closer look

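The share of peaks in the 5′ UTR moved in opposite directions with salt in the 2 strains. It was 1.81 percentage points higher in Roma salt than in Roma control, and -3.52 percentage points, that is lower, in M-81E salt against M-81E control. With 1 list per group, this difference between strains was not tested.

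SORBI_3009G030100 and SORBI_3005G109000 passed the test of the difference between the strains' salt responses (limma interaction, adjusted p = 7.0e-05 and 0.0031). In SORBI_3009G030100 both Roma salt libraries lay above the Roma control libraries, and both M-81E salt libraries below the M-81E control libraries. In SORBI_3005G109000 the 2 Roma salt libraries were the only ones above 0. Both rest on libraries listed at 0 FPKM, and an exact 0 in this table is not read here as absence of the transcript. SORBI_3009G030100 had a 5′ UTR peak in both groups in which it was listed at 0, and SORBI_3005G109000 in 1 of its 3.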

How the results depend on the processing

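Counts of hosts past the limma threshold depended most on single libraries. Leaving out each library in turn gave 2 to 313 hosts for salt against control in M-81E, 5 to 39 in Roma, 4 to 143 for the difference of the salt responses, 24 to 390 for Roma against M-81E in control and 20 to 294 in salt. With the replicate number as a replicate block, 2 hosts passed in M-81E, 4 in Roma, 106 between strains in control and 67 in salt, and the difference of the salt responses kept a count of 2. Replicate numbers pair no samples by the labels, and the differences between replicates correlated across groups at -0.038 to 0.038. Without the filter on low values, 12 hosts passed in Roma and 4 for the difference of the salt responses. Of 60 pairs of named gene and contrast, 20 stayed past the threshold in every alternative, 40 lost it in some and 0 changed sign. Among the 14 salt-responsive hosts, only SORBI_3009G030100 and SORBI_3005G109000 stayed past it throughout.

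Among genes with 1 kind of UTR peak the FPKM difference reversed, to -3.15 (exact p = 0.047, with libraries of a group sharing host sets). With fold enrichment of at least 4, the 5′ UTR share of M-81E salt was 6.81%. Counting a 3′ UTR peak in any list, 61.6% of hosts had one in Roma salt, 62.1% in Roma control, 62.0% in M-81E salt and 63.3% in M-81E control. The causes were not tested. Alternatives chosen after seeing the data were a false discovery rate of at most 1e-10, overlap of blocks, and the omission of the M-81E control list (fold difference -5.25, exact p = 0.25) or of M-81E control replicate 2 (FPKM difference 11.1, exact p = 0.016). Read depth is unknown, so an absent peak may be one not detectable at that depth.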
